A study of Mus musculus with 6 samples.

Results

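The genes of the subunits of heterotrimeric G proteins and of the regulators of G protein signaling (RGS) were taken as every gene in the count table whose symbol is that of a Gα, Gβ, Gγ or RGS gene, 1 row for each Ensembl ID. This gave 50 of 20071 genes, with 16 Gα, 5 Gβ, 10 Gγ and 19 RGS genes. They were compared between mesenchymal stem cells (MSCs) from the femurs of Pcif1fl/fl mice, labelled WT, and of Prrx1-Cre;Pcif1fl/fl littermates, labelled Pcif1 CKO, in 3 libraries of each. They are called control and CKO here, and 1 to 3 are their replicate numbers. The mice were of C57BL/6J background and 6 weeks old, and the cells were kept for 7 days in osteogenic medium with 100 nM dexamethasone, 5 mM β-glycerophosphate and 50 µg/mL ascorbic acid. Both genotypes carry loxP sites in both Pcif1 alleles. Prrx1-Cre is a recombinase driven by a promoter of limb mesenchyme, and the controls carry no Cre, so that Cre and the deletion cannot be told apart. PCIF1 writes m6Am, a methyl mark on an adenosine that is the first base of a capped mRNA.

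Heterotrimeric G proteins carry the signal from a receptor in the cell membrane to enzymes inside the cell. They consist of a Gα subunit, which binds GTP, and a Gβγ dimer, and the Gα class sets the route of the signal. Gs raises cyclic AMP and Gi/o lowers it, Gq/11 activates phospholipase C and so releases calcium, and G12/13 forms a class of its own. RGS proteins speed the hydrolysis of GTP by Gα and thereby end the signal. In bone, these routes lie downstream of receptors for parathyroid hormone, prostaglandins and endothelin.

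The libraries held between 20258209 and 28227696 counts. Pcif1 itself was at 42.8, 41.7 and 39.3 CPM (counts scaled to a common library total with the TMM factors of edgeR) in control 1 to 3 and at 39.2, 37.8 and 39.7 CPM in CKO 1 to 3, and counts per gene do not show whether single exons were lost. Xist, the transcript of the inactive X chromosome, was at 232 to 443 CPM in control libraries and at 0.722 to 1.79 CPM in CKO libraries, and the Y-linked Ddx3y was at 48.4 to 62.2 and 99.1 to 104 CPM, so that the sex makeup of the libraries and the genotype cannot be told apart. All 10 genes of a mesenchymal list were detected, with sums of 12208 to 15624 CPM in control and 15428 to 16631 CPM in CKO libraries. The largest parts were Col1a1, Col1a2 and Col3a1, with means of 4039, 4105 and 2182 CPM in control and 6173, 6377 and 2418 CPM in CKO libraries. Cxcl12 had means of 3051 and 562 CPM. Of these 10, Cxcl12 (log2 fold change -2.44), Lepr (-2.72) and Pdgfra (-0.42) were lower and Col1a1 (0.61), Col1a2 (0.64) and Thy1 (1.52) were higher in CKO libraries. Of 8 tested osteoblast genes Sp7 (-1.88), Alpl (-1.11) and Ibsp (-1.25) were lower and 1 marker shared with the mesenchymal list, Col1a1, was higher. The sums of the osteoblast list were 14584 to 20716 CPM in control and 17888 to 26652 CPM in CKO libraries. They were carried by Spp1, with means of 12803 and 17214 CPM, and by Col1a1, with means of 4039 and 6173 CPM. Spp1 did not pass the threshold, and Ibsp had means of 447 and 188 CPM. Macrophage genes were also abundant in both genotypes. The 10 genes of a macrophage list summed to between 27983 and 30210 CPM in control and between 27640 and 31081 CPM in CKO libraries. This sum was carried by Lyz2, with means of 24321 and 23900 CPM, and says little about the other genes of the list. Of the 10, 1 passed the threshold, Fcgr1, which was higher in CKO libraries (log2 fold change 0.89). Every CKO library lay above every control for 4 of the 10 and below for 1, where all genes tested gave 15.0% and 15.7%. At an unadjusted p-value under 0.05 (edgeR), 4 of the 10 differed in either direction, against 21.4% of all genes tested. Of 7 adipocyte genes 5 were lower in CKO libraries, or 71.4% against 4.51% of all genes tested, and 0 were higher. Plin1 and Cfd were at 0 in every CKO library, and Adipoq had a mean of 0.824 CPM there against 47.0 CPM in controls. Fabp4 was at 66.3 to 78.8 CPM in controls and at 85.3 to 107 CPM in CKO libraries. Its groups did not overlap, but it did not pass the threshold (log2 fold change 0.46). The list's sum, at 476 to 573 CPM against 426 to 614 CPM, was carried by Lpl, with means of 357 and 419 CPM, which did not pass the threshold. The part of macrophages, adipocytes and the mesenchymal and osteoblast genes in the results was not tested, and in bulk RNA fewer cells of a type and less RNA per cell cannot be told apart. The labels do not say that replicates came from separate mice, so p-values measure the spread between these libraries.

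Of the 50 genes, 35 passed the filter on low counts and 15 did not. In CKO MSCs, 4 genes were lower and 1 was higher at an adjusted p-value under 0.05 from the quasi-likelihood test of edgeR with Benjamini-Hochberg adjustment, which was fitted to all 13733 genes that passed the filter. The lower genes were Gnai1 and Gnao1, which encode Gα subunits of the Gi/o class, and the neighbouring genes Rgs5 and Rgs4. The higher gene was Rgs17. The 4 lower genes were 11.4% of the 35, against 4.51% of all genes tested, and the 1 higher gene was 2.86%, against 2.88%. With an added threshold of a 2-fold difference, Gnai1, Rgs5 and Rgs4 were lower, or 8.57% against 2.50% of all genes, and 0 were higher, against 1.03%. In either direction and at any fold change, 5 of the 35 passed the threshold, where 7.4% of all genes did. At an unadjusted p-value under 0.05 and at any fold change, 12 of the 35 genes differed in either direction, or 34.3% against 21.4%. The median log2 fold change of the 35 was 0.078, and that of all genes tested was 0.0017.

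**Figure D1:**
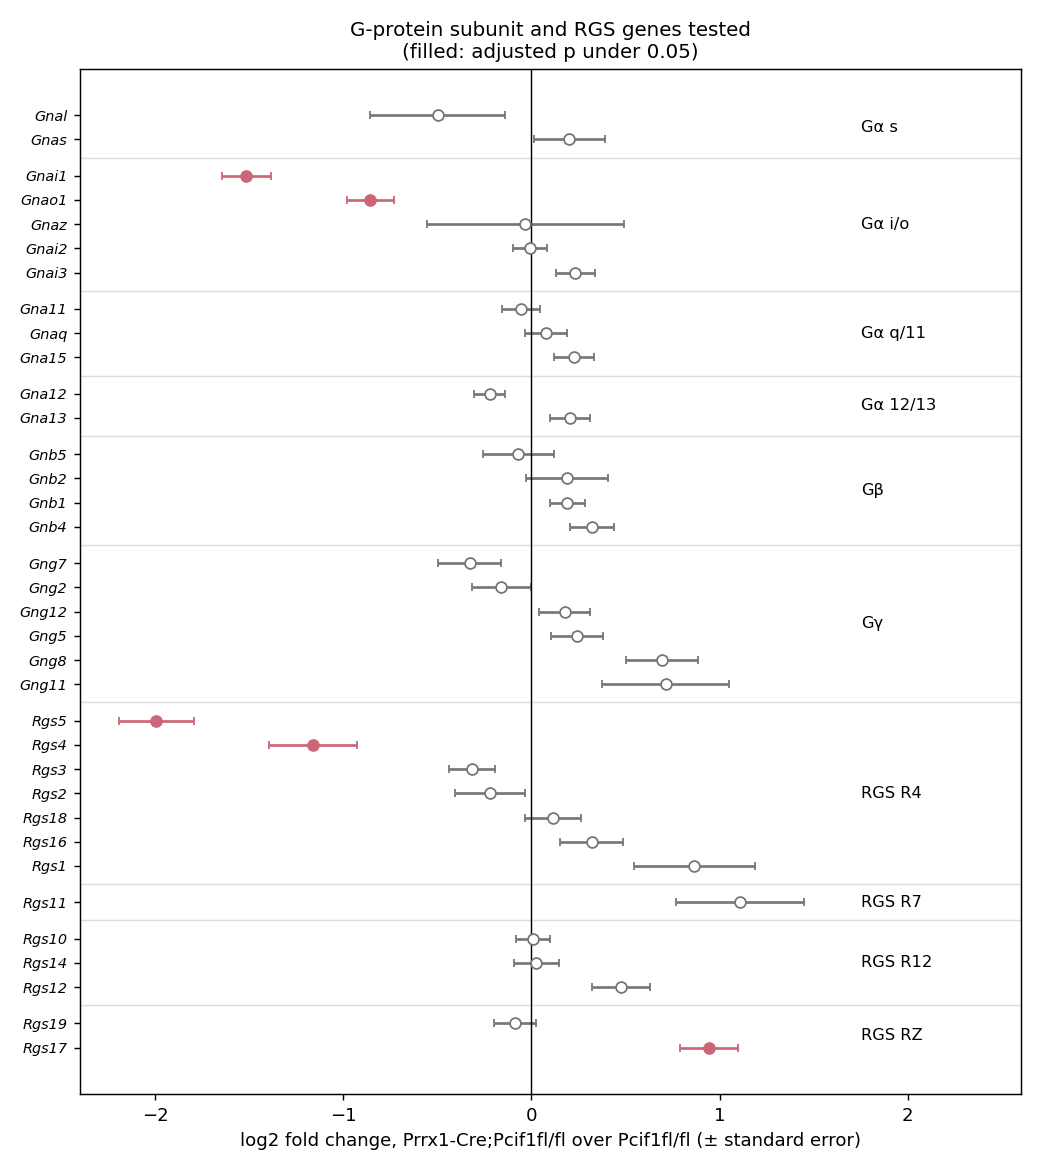
Log2 fold change between CKO and control MSCs (horizontal axis) of the 35 genes tested, by class, as points with standard errors. Filled points mark the 5 genes with an adjusted p-value under 0.05, which are Gnai1, Gnao1, Rgs5 and Rgs4 to the left of 0 and Rgs17 to the right, while 20 of the 35 genes lie within 0.25 of 0.

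Since PCIF1 acts on the first base of an mRNA, the start of each of these 5 genes is shown as RefSeq annotates it on GRCm38.p6, with 20 bases before the start, the first transcribed base in capitals, and 9 bases after it. Gnai3 and Rgs2, which did not pass the threshold, are given for comparison.
Gnai1, chr5:18360404-18360433, minus strand: tgcgcggctgcggctcggccAcgggcagct
Gnao1, chr8:93810818-93810847, plus strand: ctagcggcaccccctaactcActccctcca
Rgs5, chr1:169655481-169655510, plus strand: tcaaagggaaaggctgccccAgattattga
Rgs4, chr1:169747633-169747662, minus strand: ccccaccgggcttgaaagccAgaggctcag
Rgs17, chr10:5922391-5922420, minus strand: gctccgctccctccccgcccAccccagcct
Gnai3, chr3:108146143-108146172, minus strand: ggcgtcgccggaagtgtcgtAaacagcaca
Rgs2, chr1:144004140-144004169, minus strand: cgcggcgcgctcccggcctcAaacagctgc
All 7 annotated starts are an adenosine. Of the 26 genes tested of the set that had a RefSeq start, 12 had an adenosine at every start, or 46.2%, against 24.3% of all 10690 genes tested that had one. Among genes lower at an adjusted p-value under 0.05 the share was 25.8%, and among higher genes 29.4%. The median log2 fold change of all tested genes with an adenosine at every start was -0.0044, and that of genes with an adenosine at no start was 0.0057. Annotated starts need not be those used in these cells, and GENCODE places some elsewhere, such as that of Gnai1, which RefSeq puts upstream of the GENCODE gene. Of its transcripts, 0 of 1 of Gnai1, 3 of 12 of Gnao1 and 1 of 4 of Rgs17 begin with an adenosine, whereas 2 of 2 of Rgs5 and 3 of 3 of Rgs4 do. For the comparison genes it is 0 of 1 of Gnai3 and 1 of 4 of Rgs2.

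The Gα genes were examined first, since they decide the route of the signal. Gnai1 (ENSMUSG00000057614) lies on chromosome 5 of GRCm38 from 18265135 to 18360355 and encodes an inhibitor of adenylyl cyclase. Its level was 26.5, 24.9 and 23.6 CPM in control 1 to 3 and 7.70, 9.61 and 8.90 CPM in CKO 1 to 3. Every CKO library lay far below every control, and the spread within a genotype was small. The mean of Gnai1 fell from 25.0 ± 1.42 to 8.73 ± 0.965 CPM (± SD, n = 3 each), with a log2 fold change of -1.52 (SE 0.13, adjusted p = 0.000322, edgeR), which is 2.86-fold lower. Gnao1 (chromosome 8, 93809966 to 93969388) encodes the Gα subunit best known from neurons, and 2.57% of its exonic bases overlap an antisense gene. It was at 50.4, 46.2 and 54.2 CPM in control 1 to 3 and at 25.7, 32.0 and 25.5 CPM in CKO 1 to 3, so that the groups did not overlap. Its log2 fold change was -0.86 (SE 0.12, adjusted p = 0.00468, edgeR), short of 2-fold.

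The other inhibitory subunits that passed the filter gave other values. Gnai2 was at 717, 645 and 622 CPM in control 1 to 3 and at 655, 678 and 641 CPM in CKO 1 to 3. The groups overlapped, and the log2 fold change of -0.0074 had a 95% interval from -0.22 to 0.20, which leaves out the change of Gnai1. Gnai3 was at 131, 149 and 124 CPM in controls and at 154, 171 and 150 CPM in CKO libraries. Each of the latter lay above each control, but the log2 fold change of 0.23 (interval from -0.0016 to 0.47) did not pass the threshold (adjusted p = 0.237, edgeR). Gnaz was near the filter, at 0.257 to 0.789 CPM in controls and 0.289 to 0.597 CPM in CKO libraries, and its interval from -1.23 to 1.16 includes a 2-fold change in either direction.

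To compare levels between genes, CPM were divided by the kilobases of annotated exon. On this scale Gnai2 ranked 1 of 35 in controls, at 175 ± 13.1 CPM per kb (SD, n = 3), and Gnai3 ranked 6 at 41.3 ± 4.01 CPM per kb. Gnai1, at 7.97 ± 0.454 CPM per kb, ranked 17 of 35 in controls and 24 of 35 in CKO MSCs, where it was at 2.79 ± 0.308 CPM per kb. Gnao1 ranked 20 and then 26. The share of Gnai1 in the sum of Gnai1, Gnai2, Gnai3 and Gnao1 was between 3.47% and 3.51% in controls and between 1.09% and 1.29% in CKO libraries, and the share of Gnai3 was 18.1 ± 1.76% and 21.3 ± 0.645% (± SD, n = 3 each). The sum itself overlapped, at 215 to 243 CPM per kb against 221 to 238 CPM per kb. Gnai2 held 74.7% to 78.1% of it in controls and 75.5% to 76.9% in CKO libraries. Whether reads shared by the paralogs Gnai1, Gnai2 and Gnai3 were counted is not given in the sources used here.

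**Figure D2:**
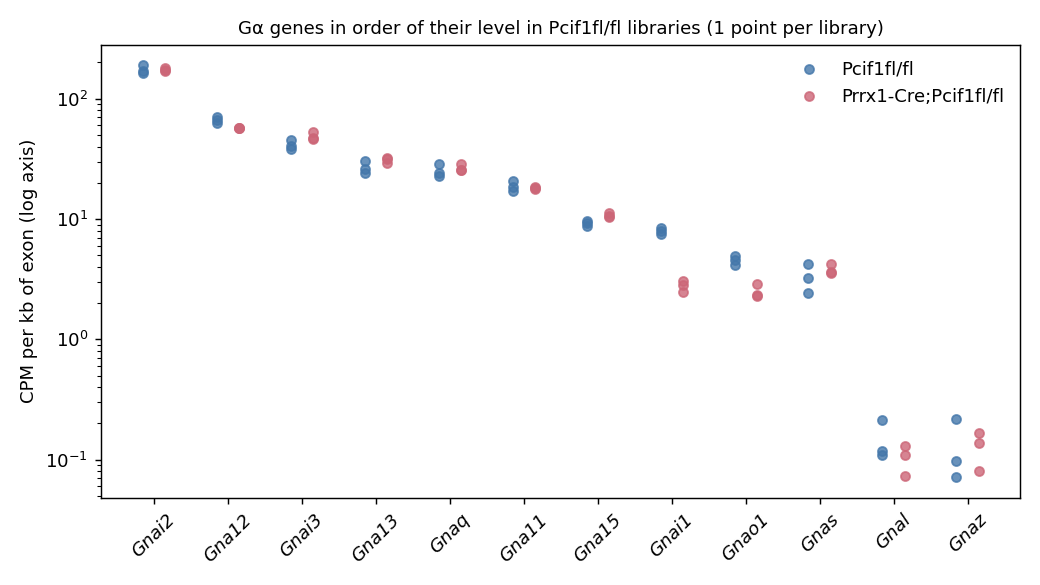
Level per kilobase of exon (vertical log axis, CPM per kb) of the 12 Gα genes tested, in order of their mean in control libraries, with 1 point per library and genotype by colour. Gnai1 and Gnao1 show the widest gaps between genotypes, the genotypes also do not overlap for Gna12, Gnai3 and Gna15, and Gnai2 is highest in both.

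The Gα genes of the remaining classes did not pass the threshold. Gnaq and Gna11, which encode the subunits that activate phospholipase C, had log2 fold changes of 0.078 (95% interval from -0.17 to 0.33) and -0.055 (from -0.28 to 0.17), and their libraries overlapped. Gna15, the member of this class known from blood cells, was at 18.6 to 20.4 CPM in controls and at 22.1 to 24.1 CPM in CKO libraries, with a log2 fold change of 0.23 (interval from -0.015 to 0.47). The genes of the G12/13 class, Gna12 and Gna13, had log2 fold changes of opposite sign, -0.22 (interval from -0.41 to -0.032) and 0.20 (from -0.042 to 0.45). Gna12 was at 216 to 240 CPM in controls and at 195 to 197 CPM in CKO libraries, without overlap (adjusted p = 0.165, edgeR), and the antisense gene Amz1 covers 13.3% of its exons. Gnas, the stimulatory subunit, was at 47.1, 36.4 and 27.3 CPM in controls and at 40.4, 39.7 and 47.2 CPM in CKO libraries. These overlapped (log2 fold change 0.20, interval from -0.23 to 0.63), and 22.0% of the exonic bases of Gnas overlap antisense genes. Gnal, a stimulatory subunit of neurons, was at 1.21 to 2.37 CPM and 0.818 to 1.44 CPM, with an interval from -1.32 to 0.32.

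None of the Gβ and Gγ genes, which encode the dimer that anchors Gα at the membrane, passed the threshold: edgeR called 0 of 4 Gβ and 0 of 6 Gγ genes, where 7.4% of all genes were called, and DESeq2 also called 0 of each. At an unadjusted p-value under 0.05, 1 of 4 and 1 of 6 differed, where 21.4% of all genes did. Gnb1 was the most abundant Gβ gene, at means of 368 ± 30.4 and 421 ± 19.2 CPM (± SD, n = 3 each) in control and CKO MSCs, a log2 fold change of 0.19 (interval from -0.026 to 0.41). Of the Gγ genes Gng12 had the highest level per kb, and its log2 fold change was 0.18 (interval from -0.14 to 0.49). Gng8 came closest to the threshold and is named after its values were seen. It was at 2.31, 2.98 and 2.37 CPM in controls and at 4.59, 3.98 and 3.85 CPM in CKO libraries, which did not overlap, and its log2 fold change was 0.70 (SE 0.19, adjusted p = 0.0673, edgeR). Gng11, Gnb4 and Gnb2 are also named after their values were seen. Gng11 was at 14.2, 11.4 and 4.70 CPM in control 1 to 3 and at 16.8, 18.2 and 14.4 CPM in CKO 1 to 3, with every CKO library above every control (log2 fold change 0.71, adjusted p = 0.272, edgeR). Without control 3, the lowest library, the value was 0.38. A list of megakaryocyte and platelet genes was likewise lowest in control 3, with sums of 6.53 to 10.7 CPM in controls and 11.9 to 13.6 CPM in CKO libraries, and its part in the values of Gng11 was not tested. Gnb4 was at 14.9, 15.0 and 13.1 CPM against 18.1, 18.5 and 17.2 CPM, again without overlap (log2 fold change 0.32, adjusted p = 0.154, edgeR). Gnb2 was at 205, 179 and 103 CPM in controls and at 187, 188 and 179 CPM in CKO libraries, and its log2 fold change of 0.19 became -0.051 without control 3. The median log2 fold change was 0.19 over the 4 Gβ genes and 0.21 over the 6 Gγ genes.

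Among the RGS genes, the R4 family, whose small members act on Gi/o and Gq, held the lower genes. Rgs5 (ENSMUSG00000026678, chromosome 1 from 169655501 to 169695813) is widely used as a marker of pericytes. It was at 10.9, 11.8 and 16.8 CPM in control 1 to 3 and at 3.20, 3.33 and 3.37 CPM in CKO 1 to 3. The controls were spread, with replicate 3 highest, while the CKO libraries were nearly equal. Rgs5 fell from a mean of 13.1 ± 3.18 to 3.30 ± 0.0912 CPM (± SD, n = 3 each), with a log2 fold change of -1.99 (SE 0.20, adjusted p = 0.000721, edgeR), the largest of the 35 in size. Without control 3 it was -1.78. Of 9 tested genes of a list for pericytes and smooth muscle, Abcc9 and Mcam were lower and 0 were higher. The share of lower genes was 22.2%, against 4.51% of all genes tested. Every CKO library lay below every control for 4 of the 9 and above for 1, where all genes tested gave 15.7% and 15.0%. The gene above was Cspg4 (log2 fold change 0.64, adjusted p = 0.0541, edgeR). The list's sum was 561 to 714 CPM in controls and 595 to 621 CPM in CKO libraries, and none of the list was at 0 in all libraries. The sum was carried by Acta2, with means of 530 and 517 CPM, while Abcc9 had means of 4.10 and 0.414 CPM. The part of pericytes in the result was not tested.

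Rgs4 (ENSMUSG00000038530, chromosome 1 from 169741477 to 169747642) is the next gene on the chromosome, 45.7 kb from Rgs5 and on the other strand, with 0 further genes of the count table between them. It was at 2.58, 2.94 and 3.55 CPM in controls and at 1.17, 1.59 and 1.30 CPM in CKO libraries, without overlap. Its log2 fold change was -1.16 (SE 0.24, adjusted p = 0.0210, edgeR). The call was lost without control 2 (-1.18) and without CKO 1 (-1.06), 2 (-1.29) or 3 (-1.13), and over the 13 alternatives its adjusted p lay between 0.00552 and 0.114. The other neighbours among the 50 genes were not called together: Gnat3, 245 kb from Gnai1, had 0 to 5 counts, and Rgs1, 238 kb from Rgs2, did not pass the threshold.

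**Figure D3:**
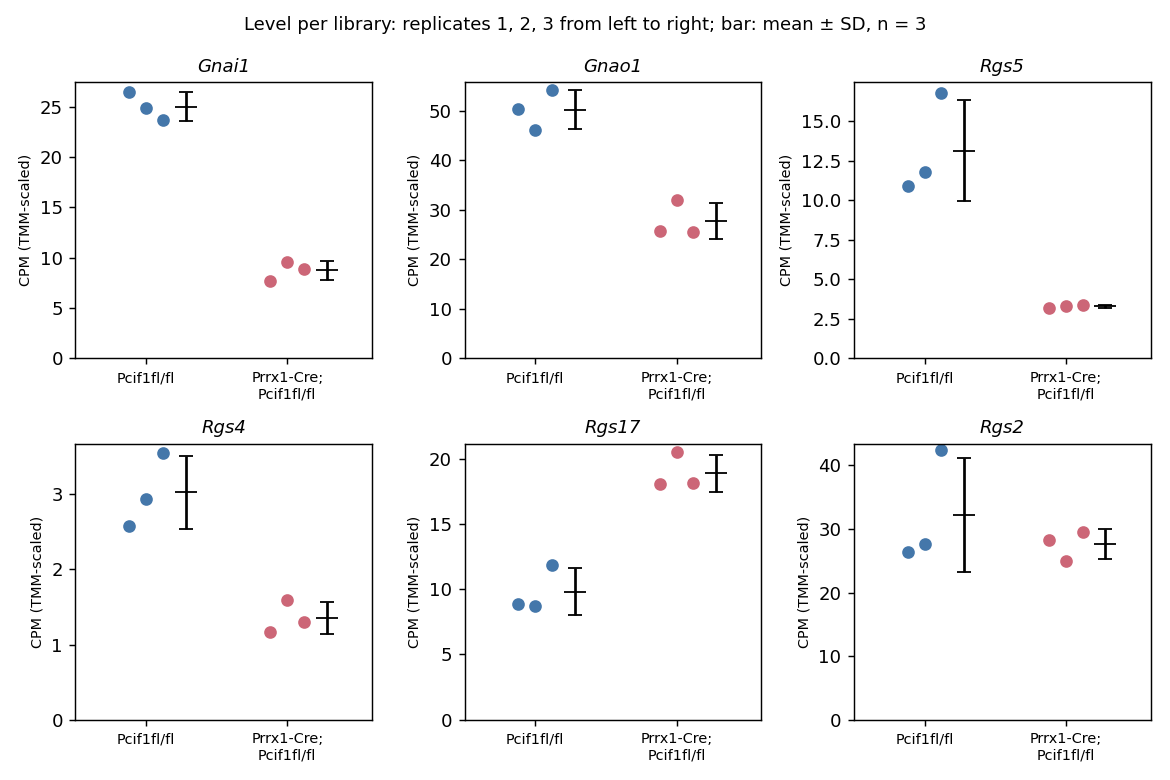
TMM-scaled CPM (vertical axis, from 0) in each of the 3 libraries of each genotype for the 5 genes that passed the threshold and for Rgs2, with bars for the mean and SD. Gnai1, Gnao1, Rgs5 and Rgs4 are lower and Rgs17 is higher in every CKO library, while the genotypes overlap for Rgs2, whose highest value of 42.5 CPM is control 3.

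Rgs2 encodes an R4 regulator that acts on Gq and is known as a gene induced by parathyroid hormone in osteoblasts. Its levels were 26.4, 27.6 and 42.5 CPM in control 1 to 3 and 28.3, 25.0 and 29.5 CPM in CKO 1 to 3. A single control stood above the other 5 libraries, which overlapped. The log2 fold change was -0.22 (95% interval from -0.65 to 0.21, adjusted p = 0.550, edgeR), and without control 3 it was 0.034. Per kb of exon Rgs2 was the most abundant R4 gene, at means of 8.87 ± 2.46 and 7.61 ± 0.648 CPM per kb (± SD, n = 3 each) in control and CKO MSCs.

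The remaining R4 genes tested were Rgs1, Rgs3, Rgs16 and Rgs18, which are described after their values were seen. Rgs3 was at 30.4, 24.7 and 30.2 CPM in controls and at 22.8, 24.0 and 21.6 CPM in CKO libraries, a log2 fold change of -0.32 (adjusted p = 0.172, edgeR). Rgs1, a regulator of immune cells, was at 4.59, 5.48 and 11.2 CPM in controls and at 13.8, 10.4 and 14.8 CPM in CKO libraries. Control 3 alone reached into the range of the other genotype, and the log2 fold change of 0.87 (adjusted p = 0.160, edgeR) was 1.36 and passed the threshold without that library. Rgs18, known from platelets, had a log2 fold change of 0.11 and Rgs16 one of 0.32, and neither passed the threshold.

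Rgs17 (ENSMUSG00000019775, chromosome 10 from 5825663 to 5922400) belongs to the RZ family, whose members act on Gi/o and on Gz. It moved opposite to Gnai1, from 8.87, 8.67 and 11.9 CPM in control 1 to 3 to 18.1, 20.5 and 18.1 CPM in CKO 1 to 3. The groups did not overlap. Its mean rose from 9.80 ± 1.79 to 18.9 ± 1.41 CPM (± SD, n = 3 each), with a log2 fold change of 0.94 (SE 0.16, adjusted p = 0.00836, edgeR), and its adjusted p reached 0.0498 at most over all alternatives. Rgs19, the more abundant RZ gene, was at 50.5 to 64.5 CPM in controls and at 51.4 to 54.5 CPM in CKO libraries, a log2 fold change of -0.089 (interval from -0.34 to 0.17).

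In the R12 family, Rgs10 was the RGS gene with the highest level per kb, at means of 41.4 ± 2.66 and 41.7 ± 0.295 CPM per kb (± SD, n = 3 each) in control and CKO MSCs. It made up 38.8% to 41.2% of the tested RGS transcripts per kb in controls and 39.9% to 41.2% in CKO libraries, whereas Rgs5 made up 2.37% to 3.26% and 0.694% to 0.715%. The log2 fold changes were 0.0085 (interval from -0.19 to 0.21) for Rgs10 and 0.026 (from -0.25 to 0.30) for Rgs14. Rgs14 and Rgs12 are named after their values were seen. Rgs12 was at 34.0, 28.3 and 22.5 CPM in controls and at 37.4, 38.2 and 42.3 CPM in CKO libraries. It did not pass the threshold (log2 fold change 0.48, adjusted p = 0.111, edgeR), though it did without control 1 (0.63) or 3 (0.34). Rgs11 was the only R7 gene tested, at 0.917, 1.84 and 1.29 CPM against 2.43, 4.13 and 2.26 CPM. Its log2 fold change of 1.11 had an adjusted p of 0.0948 in edgeR, and DESeq2 (1.12) called it.

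Across the 35 genes, every CKO library lay below every control for 6 genes and above for 9, or 17.1% and 25.7%, where all genes tested gave 15.7% and 15.0%. Control 3 was the highest or lowest of the 6 libraries for 23 of the 35 genes, or 65.7%, as it was for 64.2% of all genes tested. Without it 5 of 36 genes were lower and 6 higher, or 13.9% and 16.7%, and the background was 10.4% and 11.1% of genes. Gnai1, Gnao1, Rgs5, Rgs4 and Rgs17 remained among these, and Gna12, Gng12, Gng8, Rgs1, Rgs11 and Rgs12 were added.

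**Figure D4:**
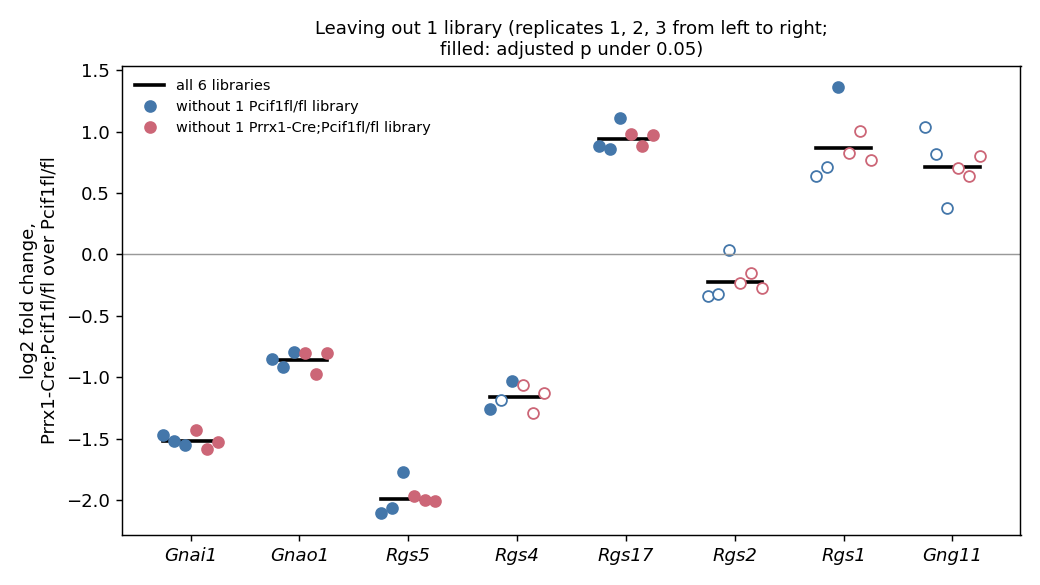
Log2 fold change (vertical axis) of 8 genes with all 6 libraries (black bars) and without each library in turn (points, coloured by the genotype of the library left out, filled where the adjusted p-value was under 0.05). Gnai1, Gnao1, Rgs5 and Rgs17 passed the threshold in all 6 cases, Rgs4 in 2 of 6, and Rgs2 crossed 0 without control 3.

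The 15 genes that did not pass the filter had at most 24 counts in a library. Gng13, Rgs6, Rgs7 and Rgs22 had 3 counts or fewer in every library. Gnat2, a subunit of cone photoreceptors, had 24, 18 and 12 counts in control 1 to 3 and 5, 8 and 9 counts in CKO 1 to 3, and Gnat1 and Gnat3 had at most 5 counts. Gna14, of the Gq class, had 3 to 6 counts. Gng10 had 2 to 10 counts, but Gm20503 on the same strand covers 72.0% of its exons. The other genes below the filter were Gnb3, Gng3, Gng4, Rgs8, Rgs9 and Rgs20, and Gng4 reached 16 and Rgs20 reached 19 counts. With no filter all 50 genes were tested, and DESeq2 tested 43. Neither called any of these 15.

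The pathway around these genes was described from 3 lists written by hand. Of 53 tested genes on a list of receptors of mesenchymal and bone cells, 10 were lower and 2 were higher in CKO MSCs. These were 18.9% and 3.77%, against 4.51% and 2.88% of all genes tested. The median log2 fold change of the list was -0.042. Every CKO library lay below every control for 15 of the 53 and above for 8, where all genes tested gave 15.7% and 15.0%. The list holds Npr3, which is not a G protein-coupled receptor, and without it 9 of 52 were lower, or 17.3%. The smallest p-values belonged to Ptgfr, Npr3, Ednra, Adrb3 and Avpr1a, with log2 fold changes of -2.56, -1.69, -1.96, -2.69 and -2.06. Ptgfr, Ednra and Avpr1a are receptors for prostaglandin F, endothelin and vasopressin that act chiefly through Gq. Adrb3 is a Gs-coupled receptor known from fat cells, was at 1.22 to 1.80 CPM in controls, and has 24.9% of its exonic bases overlapping an antisense gene. Pth1r, the receptor for parathyroid hormone, is named after its values were seen. Its means were 18.2 ± 3.11 and 7.88 ± 1.42 CPM (± SD, n = 3 each) in control and CKO MSCs, the lowest control at 14.9 CPM lay above the highest CKO library at 8.95 CPM, and its log2 fold change was -1.21 (SE 0.19, adjusted p = 0.00610, edgeR). The 2 higher receptors, likewise named after their values were seen, were the ATP receptor P2ry2 (0.70) and the adenosine receptor Adora2b (0.85).

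Of 23 tested effectors of G proteins, 1 was lower and 1 was higher, both adenylyl cyclases, or 4.35% in each direction against 4.51% and 2.88% of all genes tested. Their median log2 fold change was -0.13, with 17 of 23 negative, where 6825 of all 13733 genes tested were negative. Every CKO library lay below every control for 9 of the 23 and above for 2, where all genes tested gave 15.7% and 15.0%. Adcy7 was at 172, 186 and 164 CPM in controls and at 266, 253 and 261 CPM in CKO libraries, a log2 fold change of 0.58 (adjusted p = 0.00544, edgeR). Adcy2 was at 49.1, 49.9 and 66.8 CPM against 36.8, 31.7 and 37.6 CPM, a log2 fold change of -0.65 (adjusted p = 0.0322, edgeR), and it did not pass the threshold without control 2 or without any 1 CKO library (-0.72 to -0.48 over all alternatives). The log2 fold changes of the phospholipase C genes Plcb1 to Plcb4, named outside the rule for named genes, were -0.26, -0.16, -0.083 and -0.00063, and none passed the threshold. Of 22 tested chaperones, kinases, arrestins and other regulators, 1 was lower, or 4.55% against 4.51%, and 0 were higher, against 2.88%. Their median log2 fold change was 0.0052. Every CKO library lay below every control for 4 of the 22 and above for 2, where all genes tested gave 15.7% and 15.0%. The lower gene was Ramp2, which encodes a partner of the calcitonin-receptor-like receptor. Ramp2 was at 0.574 to 1.01 CPM in controls and 0.0900 to 0.149 CPM in CKO libraries (log2 fold change -2.70, adjusted p = 0.0123, edgeR), and 33.4% of its exonic bases overlap Vps25 on the same strand. The call was lost without CKO 1 or CKO 3 (-2.95 to -2.46 over all alternatives).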

How the data were processed

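RNA bound to poly-T beads was sequenced from MSCs at day 7, in 3 libraries per genotype by the sample labels (the design text speaks of duplicates). The authors deposited raw read counts for each gene, obtained after mapping to mm10 with HISAT2 per the submitters' notes and not normalized. The counting tool, annotation and use of strand are not given in the sources used here, so antisense and overlapping genes may share reads. Of 20163 rows, 92 repeat an ID with the same counts, and 20071 IDs were used. The total per library was 20258209 to 28227696 counts.

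The table was fitted by edgeR 4.0.16 under R 4.3.3 (filterByExpr, TMM, glmQLFit, glmQLFTest, no covariate) over all genes, with Benjamini-Hochberg adjustment. Standard errors (SE) were derived from the log2 fold change and the F statistic, and intervals are 95%. The members and lists were chosen with earlier results of these data known. Genes are named if they passed the threshold, are Gα genes that were tested, are Gnai1 or Rgs2, have the highest level per kb of the Gβ genes, the Gγ genes or their RGS family (R4, R7, R12, RZ), or have one of the 5 smallest p-values among the genes of a pathway list that passed the threshold. Positions, exon lengths and overlaps are from GENCODE M21 on GRCm38, the assembly of mm10. Length counts every annotated exon, which understates levels of genes with many isoforms. RefSeq starts were found for 37 of the 50 genes. Fits were tested on simulated counts. Alternatives were DESeq2 1.42.0, limma-voom (limma 3.58.1), RLE or total-count scaling, no filter, a minimum mean of 10 counts, a block for the replicate number, and leaving out each library. With 3 against 3 libraries, an exact two-sided permutation test cannot go below p = 0.1. Intervals cover the spread of libraries and counting, not PCR duplicates.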

Additional observations from a re-analysis of the deposited data

How the results depend on the processing

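Gnai1, Gnao1, Rgs5 and Rgs17 kept their direction and an adjusted p-value under 0.05 in all 13 alternatives, with log2 fold changes from -1.59 to -1.43, -0.97 to -0.80, -2.11 to -1.78 and 0.86 to 1.11. Rgs4 (-1.29 to -1.03) did so in 9 of 13. With DESeq2, 2 G-protein and RGS genes were higher, 1 of them at least 2-fold, and 2 effectors were lower, as they also were with total-count scaling (2) and with no filter (2). Leaving out 1 library gave 3 to 5 lower and 1 to 6 higher genes of the set, 2 to 3 lower and 0 to 3 higher at least 2-fold, 2 to 3 Gα, 0 to 2 Gγ and 2 to 6 RGS genes called, 8 to 12 lower and 1 to 7 higher receptors, 0 to 5 lower and 1 to 2 higher effectors, and 0 to 3 lower regulators. The highest counts of higher genes of the set, Gγ and RGS genes called, higher receptors, lower effectors and lower regulators came without control 3, and the cause was not tested. Genes near 0 changed sign: Gnaz with limma-voom (0.083) and Rgs10 with total-count scaling (-0.013). With the replicate number as a block, Gnaz was at 0.038, the set still gave 4 lower and 1 higher gene, and all genes gave 503 lower and 267 higher instead of 620 and 396. The numbers did not pair the libraries, since the deviations of same-numbered libraries had correlations of 0.055, -0.045 and -0.013. Leaving out 1 library gave ranges across 0 for Gnai2 (-0.047 to 0.057), Gnaz (-0.33 to 0.61), Gna11 (-0.11 to 0.027), Gnb2 (-0.051 to 0.39), Gnb5 (-0.25 to 0.080), Gng2 (-0.26 to 0.026), Rgs10 (-0.037 to 0.058), Rgs14 (-0.054 to 0.13), Rgs2 (-0.34 to 0.034) and Rgs19 (-0.16 to 0.020). Adcy2 passed the threshold in 9 of 13 alternatives and Ramp2 in 11 of 13. At 20258209 to 28227696 counts per library, genes of the set near the filter, such as Gnaz with 6 to 22 counts, had intervals wider than a 2-fold difference.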
